A study of Mus musculus with 6 samples.

Results

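Cells that run short of oxygen stabilise hypoxia-inducible factor (HIF), a transcription factor pair that switches on genes for glucose use, blood vessel growth and oxygen delivery. Among its best known outputs are secreted proteins: vascular endothelial growth factors, which act on receptors of vessel-lining cells, adrenomedullin and endothelin, which relax and constrict vessels, and erythropoietin, which drives red cell formation. The 10 genes described here are Vegfa, Vegfb, Vegfc, Pgf, Adm, Edn1, Angptl4, Epo, Flt1 and Ankrd37, of 24421 genes in the count table. They were chosen by symbol, as secreted or receptor genes of the low-oxygen response, plus Ankrd37, an ankyrin repeat gene known as a HIF target whose product is not secreted. All 10 symbols were found.

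The cells are Neuro2a, a mouse neuroblastoma line labelled as brain tumour cells, with the genotype given as WT in every sample. One group, ADV-shFam172a (3 libraries), received an adenovirus carrying a short hairpin RNA against Fam172a. The other, ADV-shCtrl (3 libraries), received an adenovirus with a control hairpin, and both were harvested after 48 h on collagen-coated plates. No label mentions a low-oxygen treatment. Whether the libraries of a group derive from separate infections is not stated, so each p-value speaks to library-to-library spread alone, and that spread could be technical. The line is a single cell type in culture, and fewer cells with a transcript and less transcript per cell cannot be told apart in such bulk libraries.

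Gene counts summed to 21690467 to 23409319 per shFam172a library and to 11250312 to 12820531 per shCtrl library, so low genes were measured less precisely in shCtrl. Fam172a stood at 9.22, 8.28 and 9.22 CPM (read counts scaled to a common library size) in shFam172a and at 18.6, 19.3 and 19.5 CPM in shCtrl (log2 fold change -1.10 ± 0.092, edgeR adjusted p = 2.4e-12). Of 11 neuroblastoma and sympathoadrenal markers, 10 passed the filter on low counts, of which 5 were higher, 1 lower and 4 not called. Over all genes tested, 36.1% were called in either direction. The summed level of these markers was 1261 to 1286 CPM in shFam172a and 1227 to 1253 CPM in shCtrl, but single markers moved in opposite directions. Elavl4 was lower, at 214 CPM in shFam172a and 303 CPM in shCtrl (log2 fold change -0.504 ± 0.031, edgeR adjusted p = 2.7e-16). The higher ones were Phox2a, Hand2, Isl1, Th and Stmn2. Of these, Hand2 was at 321 CPM in shFam172a and 256 CPM in shCtrl, and Th at 18.7 CPM in shFam172a and 9.28 CPM in shCtrl. Of 8 endothelial markers, 4 passed: Egfl7, Pecam1, Vwf and Tek. Egfl7 and Vwf were higher, Egfl7 at a log2 fold change of 0.18 ± 0.071 (edgeR adjusted p = 0.041), and Pecam1 and Tek were not called. Kdr, Cdh5, Emcn and Cldn5 had at most 5 counts in any library. The summed level of the endothelial list was 52.7 to 55.9 CPM in shFam172a and 44.6 to 47.0 CPM in shCtrl. Its main contributors were Egfl7, Pecam1 and Vwf, of which Vwf was at 13.0 ± 0.645 CPM in shFam172a and 8.16 ± 0.971 CPM in shCtrl (log2 fold change 0.67 ± 0.11, edgeR adjusted p = 5.1e-06). The part of these marker differences in the results below was not tested. Rows that name no gene held 35.0% to 37.6% of all counts in shFam172a and 33.5% to 34.5% in shCtrl, without overlap, and reads outside any feature 17.2% to 17.9% in shFam172a and 16.4% to 16.6% in shCtrl. Their part in the results was not tested either. Fibroblast markers summed to 4.67 to 6.19 CPM in shFam172a libraries and 6.13 to 6.79 CPM in shCtrl libraries, and 0 of the 3 tested were called. Macrophage markers summed to 0.983 to 1.11 CPM in shFam172a and 0.234 to 0.774 CPM in shCtrl. The only one tested, Cd68, was called higher (log2 fold change 0.998 ± 0.40, edgeR adjusted p = 0.048). It had 21 to 24 counts per shFam172a library and 3 to 8 per shCtrl library, and its part was not tested.

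HIF binds a 5-base core, ACGTG or GCGTG, so the promoters of the genes that the results turn on are shown first. RefSeq promoter windows on GRCm38.p6 were on hand for 9 of the 10 genes. In the 250 bases before the start, read on both strands, 7 of those 9 genes had a core in at least 1 window. Counted by window, which is the unit of the next figures, it was 7 of 11. Across all 32851 promoter windows of that length, 38.6% held 1 or more, and 6.58% held at least 3. The sequences below run 5′ to 3′ on the gene's strand, end at the base before the RefSeq start, and have each core in capitals, where a core on the other strand reads CACGT or CACGC. They are Ankrd37 (chr8:45999851-46000100, minus strand) and Adm (chr7:110627407-110627656, plus strand), the members with the largest rises, then Vegfb (chr19:6987652-6987901, minus strand), which was not called, and the upstream one of the Vegfa windows (chr17:46032378-46032627, minus strand).
Ankrd37: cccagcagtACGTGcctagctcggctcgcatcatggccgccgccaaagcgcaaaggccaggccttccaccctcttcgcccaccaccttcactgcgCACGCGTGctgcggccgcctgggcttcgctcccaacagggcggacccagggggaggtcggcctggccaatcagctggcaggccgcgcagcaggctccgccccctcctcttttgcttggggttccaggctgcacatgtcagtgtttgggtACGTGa
Adm: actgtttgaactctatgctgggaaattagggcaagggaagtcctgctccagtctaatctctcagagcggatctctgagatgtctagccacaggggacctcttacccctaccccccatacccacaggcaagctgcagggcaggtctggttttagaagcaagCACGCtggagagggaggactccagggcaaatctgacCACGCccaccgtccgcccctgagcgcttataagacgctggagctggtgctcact
Vegfb: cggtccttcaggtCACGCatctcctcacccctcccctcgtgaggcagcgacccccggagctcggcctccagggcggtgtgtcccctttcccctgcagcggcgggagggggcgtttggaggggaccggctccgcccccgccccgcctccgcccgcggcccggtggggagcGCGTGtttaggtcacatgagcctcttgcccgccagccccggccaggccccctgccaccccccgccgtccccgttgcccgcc
Vegfa: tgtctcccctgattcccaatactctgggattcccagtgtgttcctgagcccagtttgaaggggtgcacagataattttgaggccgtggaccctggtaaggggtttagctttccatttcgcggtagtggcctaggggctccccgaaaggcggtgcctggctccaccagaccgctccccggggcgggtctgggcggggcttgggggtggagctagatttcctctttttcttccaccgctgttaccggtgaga
The Ankrd37 window held 4 cores, of which 2 overlap on opposite strands, and the nearest began 6 bases before the RefSeq start. That window lies inside the annotated span of the gene, and 17 of its bases are annotated Ankrd37 exon. The Adm and Vegfb windows held 2 cores each and this Vegfa window 0. The window of the other Vegfa start, inside the gene, held 2, and 218 of its bases are annotated Vegfa exon. For the genes not printed, the windows of Vegfc and Edn1 held 0, of Flt1 1, of Epo 2 and of Pgf 0 and 1. The matches describe the letters only: they are not shown to be bound, and a window without one says nothing about sites farther away.

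Of the 10 genes, 6 passed the filter and were tested, and 4 were higher in shFam172a: Vegfa, the main growth factor for vessel-lining cells, Vegfc, known for lymphatic growth, the vasodilator peptide gene Adm, and Ankrd37. Vegfb and Pgf, both ligands of the receptor Flt1, were not called, and 0 genes were lower. Over all 12820 genes tested, 36.1% were called in either direction and 17.5% were called higher. The groups did not overlap for 5 of the 6, all except Pgf and each with shFam172a above, where 22.5% of all genes tested lay apart in that direction and 46.0% in either. At least a 2-fold rise was found for Adm and Ankrd37, against 0.78% of all genes tested. The median log2 fold change was 0.40 over the 6 tested genes and -0.00030 over all genes tested. The remaining 4 genes, Edn1, Epo, Angptl4 and Flt1, stayed under the filter.

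**Figure D1:**
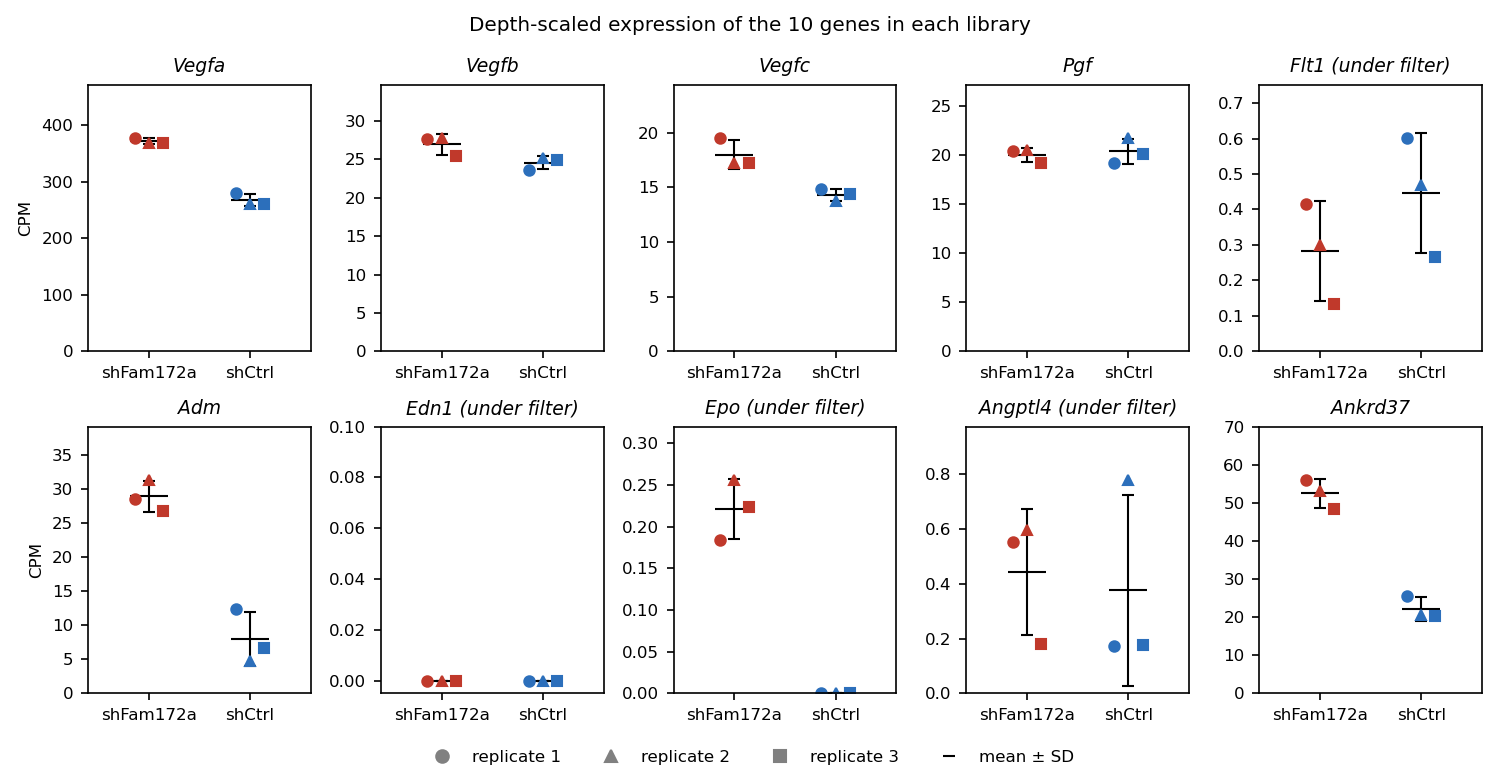
CPM (vertical axis, from 0, a separate scale for each gene) of the 10 genes in the 3 shFam172a and the 3 shCtrl libraries, 1 symbol per replicate, with the mean and SD as black bars. Adm, Ankrd37, Vegfa, Vegfc and, narrowly, Vegfb lie higher in each shFam172a library than in any shCtrl library. Pgf overlaps, and the genes under the filter lie at or below 0.780 CPM.

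Vegfa was by far the most abundant of the factors. The gene (ENSMUSG00000023951.17) spans 46016993 to 46032369 of chromosome 17, minus strand, on GRCm38, and its 8 merged exons overlap no other annotated exon. Raw counts were 8153, 8604 and 8206 in shFam172a and 3269, 3354 and 2950 in shCtrl. After depth scaling it stood at 378, 369 and 369 CPM in shFam172a and at 280.3, 261 and 261 CPM in shCtrl. The groups did not overlap, and the spread within each was small beside the gap. The means were 372 ± 5.11 CPM in shFam172a and 268 ± 10.95 CPM in shCtrl (SD, n = 3 each). This was a 1.39-fold difference, at a log2 fold change of 0.47 ± 0.030 (SE; edgeR quasi-likelihood test, adjusted p = 1.4e-15). Of all genes tested, 4.88% had a larger log2 fold change.

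Vegfc, the ligand of Flt4, was lower in abundance. Its counts were 421, 402 and 383 in shFam172a and 173, 176 and 162 in shCtrl. In CPM these were 19.5, 17.2 and 17.2 in shFam172a and 14.8, 13.7 and 14.4 in shCtrl. The groups did not overlap, and the log2 fold change was 0.33 ± 0.086 (edgeR, adjusted p = 0.0024). The gene is on chromosome 8 at 54077606 to 54187096, plus strand.

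Vegfb and Pgf bind Flt1 but not Kdr, the main signalling receptor of Vegfa. Vegfb had 27.6, 27.8 and 25.4 CPM in shFam172a, against 23.6, 25.2 and 24.9 CPM in shCtrl. The lowest shFam172a library lay just above the highest shCtrl library, and the log2 fold change of 0.13 ± 0.068 did not pass (edgeR quasi-likelihood test, adjusted p = 0.13). Pgf, placental growth factor, had 20.4, 20.5 and 19.2 CPM in shFam172a, against 19.2, 21.7 and 20.1 CPM in shCtrl. Its groups overlapped and its log2 fold change was -0.03 ± 0.076 (edgeR, adjusted p = 0.83).

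The balance within the family can be read inside each library, where depth and scaling cancel. The ratio of Vegfa to Vegfb counts was 13.7, 13.3 and 14.5 in shFam172a and 11.9, 10.4 and 10.5 in shCtrl. For Vegfa to Pgf it was 18.5, 18 and 19.2 in shFam172a and 14.6, 12.0 and 13.0 in shCtrl. Both ratios were higher in each shFam172a library than in any shCtrl library. The ratio of Vegfa to Vegfc was 19.4, 21.4 and 21.4 in shFam172a and 18.9, 19.1 and 18.2 in shCtrl, a narrower gap. With 3 libraries a group, the two-sided exact permutation test cannot go below p = 0.10, which these 3 ratios reached (adjusted p = 0.12 over the 6 ratios computed).

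Per base of exon, Vegfa made up 72.0% ± 0.397 of the summed level of Vegfa, Vegfb, Vegfc, Vegfd and Pgf in shFam172a and 67.5% ± 1.56 in shCtrl (SD, n = 3 each). The Vegfb share was 13.9% ± 0.555 in shFam172a and 16.5% ± 0.849 in shCtrl. For Pgf it was 5.72% ± 0.156 in shFam172a and 7.58% ± 0.575 in shCtrl. The Vegfc share was 6.09% ± 0.355 in shFam172a and 6.31% ± 0.181 in shCtrl, and the groups overlapped.

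**Figure D2:**
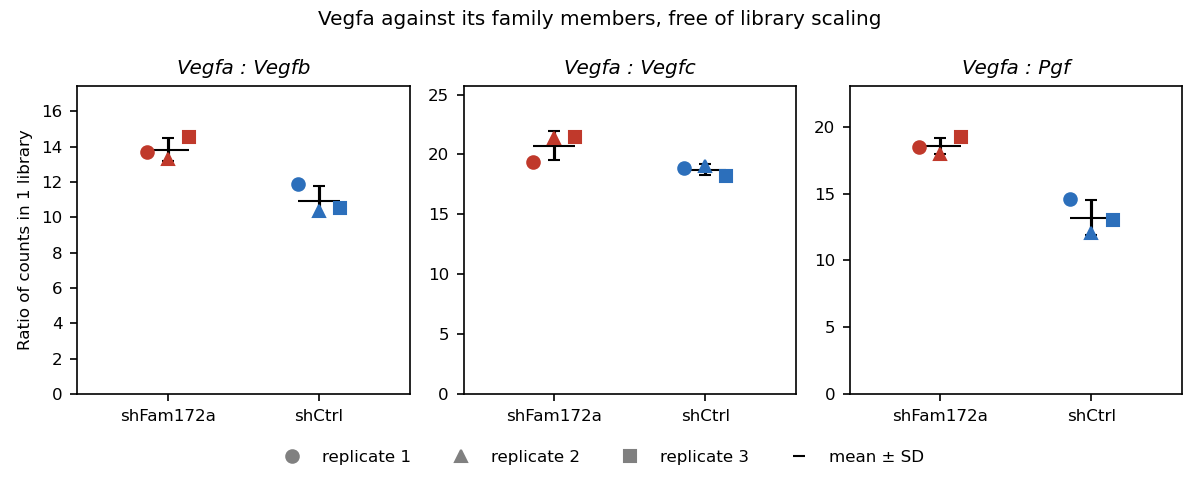
Ratio of raw counts within each library (vertical axis, from 0) of Vegfa to Vegfb, to Vegfc and to Pgf, for 3 shFam172a and 3 shCtrl libraries, with the mean and SD as black bars. The Vegfa to Pgf ratio lies between 18 and 19.2 in shFam172a and between 12.0 and 14.6 in shCtrl.

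Adm had the largest rise of the tested members and also the widest spread. The gene encodes adrenomedullin, a vasodilator peptide, and lies on chromosome 7 at 110627661 to 110629820, plus strand (ENSMUSG00000030790.15), with 4 merged exons free of overlap. Its counts were 618, 732 and 597 in shFam172a and 145, 62 and 75 in shCtrl. In CPM these were 28.6, 31.4 and 26.8 in shFam172a and 12.4, 4.83 and 6.64 in shCtrl. The groups did not overlap, and within shCtrl replicate 1 stood well above the other two. The log2 fold change was 1.88 ± 0.29, or 3.67-fold (edgeR, adjusted p = 0.0083), and 0.101% of all genes tested had a larger one. Without shCtrl replicate 1 it was 2.35 (adjusted p = 6.6e-24), and without shCtrl replicate 2 it was 1.597 (adjusted p = 1.8e-05). Leaving out any one of the remaining libraries brought the adjusted p closer to the threshold, at 0.036, 0.035 and 0.026 without shFam172a replicates 1, 2 and 3 and at 0.044 without shCtrl replicate 3.

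Replicate 1 of shCtrl was also the highest of its group for most genes of a low-oxygen list. Of 20 further low-oxygen target genes, all tested, 18 had their highest shCtrl level in replicate 1. Their mean log2 CPM was 7.38, 7.37 and 7.35 in shFam172a and 6.54, 6.35 and 6.40 in shCtrl. Vegfa, Vegfc and Ankrd37 were also highest in replicate 1 among the shCtrl libraries, while Vegfb and Pgf were lowest there. The share of all genes tested that were highest in that library was not computed.

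Ankrd37 (ENSMUSG00000050914.16) lies on chromosome 8 at 45996902 to 46005707, minus strand. Its counts were 1209, 1238 and 1077 in shFam172a and 299, 264 and 228 in shCtrl. In CPM these were 56.0, 53.1 and 48.4 in shFam172a and 25.6, 20.6 and 20.2 in shCtrl. Every shFam172a library was well clear of every shCtrl library, at a log2 fold change of 1.25 ± 0.071, or 2.37-fold (edgeR, adjusted p = 2.2e-16). Of all genes tested, 0.374% had a larger value. Its exons share 349 bases with Lrp2bp and 57 bases with Ufsp2 on the opposite strand, and the strand setting of the counting is not given in the sources used here. Lrp2bp was at 6.17 ± 1.21 CPM in shFam172a and 3.72 ± 0.723 CPM in shCtrl (log2 fold change 0.74 ± 0.17). Ufsp2 was at 117 ± 4.68 CPM in shFam172a and 104 ± 2.39 CPM in shCtrl (0.18 ± 0.039), and the part of reads from either gene in the Ankrd37 counts was not tested.

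**Figure D3:**
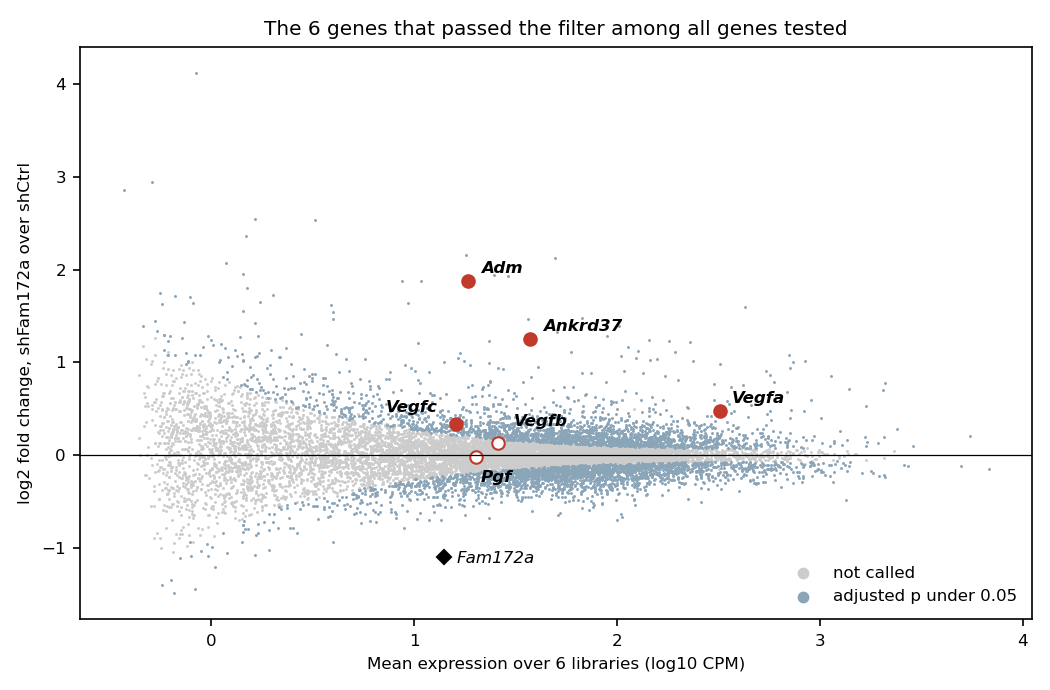
Log2 fold change of shFam172a over shCtrl (vertical axis) against mean expression over 6 libraries (horizontal axis, log10 CPM) for the 12820 genes tested, with called genes in blue-grey. Red circles mark the 6 tested members, filled where adjusted p was under 0.05, and the black diamond marks Fam172a. Adm at 1.88 and Ankrd37 at 1.25 stand clear of the main cloud, Vegfa at 0.47 lies near its upper edge, and Vegfb and Pgf lie inside it.

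Read per base of exon, the order of the levels was not the same in the groups. Vegfa led at 86.8 CPM per kilobase in shFam172a and 62.5 in shCtrl, followed by Ankrd37 at 34.1 in shFam172a and by Vegfb at 15.3 in shCtrl. In shFam172a, Adm at 17.9 and Vegfb at 16.8 CPM per kilobase were close, with Vegfc at 7.35 and Pgf at 6.90 below them. In shCtrl, Ankrd37 at 14.4 was close to Vegfb, and Pgf at 7.01, Vegfc at 5.84 and Adm at 4.92 CPM per kilobase came last.

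Edn1, the vasoconstrictor endothelin 1, had 0 counts in all 6 libraries, which allows up to 0.0291 CPM (3 counts over the summed gene counts, for counting error only). Epo, erythropoietin, had 4, 6 and 5 counts in shFam172a and 0, 0 and 0 in shCtrl. Its level was 0.223 CPM over the shFam172a libraries (exact 95% Poisson interval 0.125 to 0.367, counting error only). A count of 0 in shCtrl allowed up to 0.0840 CPM (3 counts over the group), and the matching Poisson interval reached 0.103 CPM. Epo was called where the filter was dropped (edgeR, adjusted p = 0.019), and DESeq2 gave it an unadjusted p of 0.017 with no adjusted p. One annotated Epo exon shares 104 bases with Gnb2 on the same strand, and Gnb2 stood at 272 ± 13.3 CPM in shFam172a and 273 ± 7.81 CPM in shCtrl.

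Angptl4, a secreted inhibitor of lipoprotein lipase, had 12, 14 and 4 counts in shFam172a and 2, 10 and 2 in shCtrl. The groups overlapped, and the level over each group was 0.445 CPM in shFam172a (exact 95% Poisson interval 0.3004 to 0.636) and 0.392 CPM in shCtrl (0.214 to 0.658). No difference was detectable at this depth. Flt1, a receptor and decoy for Vegfa, Vegfb and Pgf, had 9, 7 and 3 counts in shFam172a and 7, 6 and 3 in shCtrl. Its level was 0.282 CPM in shFam172a (0.170 to 0.440) and 0.448 CPM in shCtrl (0.256 to 0.728), again with overlapping groups.

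The receptors of these ligands were mostly low in this line, apart from the neuropilins. Of 14 receptors and processing enzymes, 7 passed the filter, of which 3 were higher, 1 lower and 3 not called. Their median log2 fold change was -0.03, and of all genes tested 17.5% were called higher and 18.6% lower. Nrp1 and Nrp2, co-receptors for Vegfa and for semaphorins, were the most abundant. Nrp2 had 149, 162 and 165 CPM in shFam172a and 127, 126 and 124 CPM in shCtrl (log2 fold change 0.33 ± 0.038, edgeR adjusted p = 3.8e-09). Nrp1 averaged 136 ± 5.13 CPM in shFam172a and 117 ± 0.553 CPM in shCtrl (0.22 ± 0.037, edgeR adjusted p = 1.0e-05). Kdr, the main Vegfa receptor, had 1 count in all shFam172a libraries together and 0 in shCtrl, and Flt4, the Vegfc receptor, had 32 counts in shFam172a and 18 in shCtrl.

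Adrenomedullin signals through Calcrl paired with a RAMP protein. Ramp2 stood at 5.05, 3.60 and 4.14 CPM in shFam172a and at 6.17, 6.78 and 6.56 CPM in shCtrl, without overlap between the groups (-0.61 ± 0.15, edgeR adjusted p = 0.0013). Its annotated exons share 1103 bases with Vps25 on the same strand, so its value is uncertain. Calcrl averaged 3.36 ± 0.844 CPM in shFam172a and 4.21 ± 0.932 CPM in shCtrl and was not called (-0.34 ± 0.19, adjusted p = 0.17), while without shFam172a replicate 1 it was (-0.53, adjusted p = 0.039). Ramp1, Ramp3 and Ackr3, a scavenger of adrenomedullin, had 2, 3 and 2 counts over the shFam172a libraries and 0 each over the shCtrl libraries.

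Epor, the erythropoietin receptor, had 7.51, 8.02 and 6.83 CPM in shFam172a and 5.23, 5.92 and 6.47 CPM in shCtrl. Its log2 fold change of 0.35 ± 0.13 passed narrowly (edgeR, adjusted p = 0.038). The call was lost without shFam172a replicate 1 or 2 or shCtrl replicate 1 or 2 (adjusted p = 0.066, 0.13, 0.17 and 0.091). The endothelin receptors were close to absent from the counts, with 0 counts of Ednra in shFam172a, 3 in shCtrl and 0 of Ednrb in either. Of the endothelin converting enzymes, Ece2 averaged 23.2 ± 2.38 CPM in shFam172a and 23.6 ± 1.05 CPM in shCtrl (-0.03 ± 0.076, adjusted p = 0.80). Ece1 averaged 0.631 ± 0.382 CPM in shFam172a and 0.991 ± 0.370 CPM in shCtrl (-0.65 ± 0.40, adjusted p = 0.22), and without shFam172a replicate 2 it was called at -1.27 (edgeR, adjusted p = 0.027). Ece2 shares 2937 exon bases with the readthrough gene Gm49333.

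**Figure D4:**
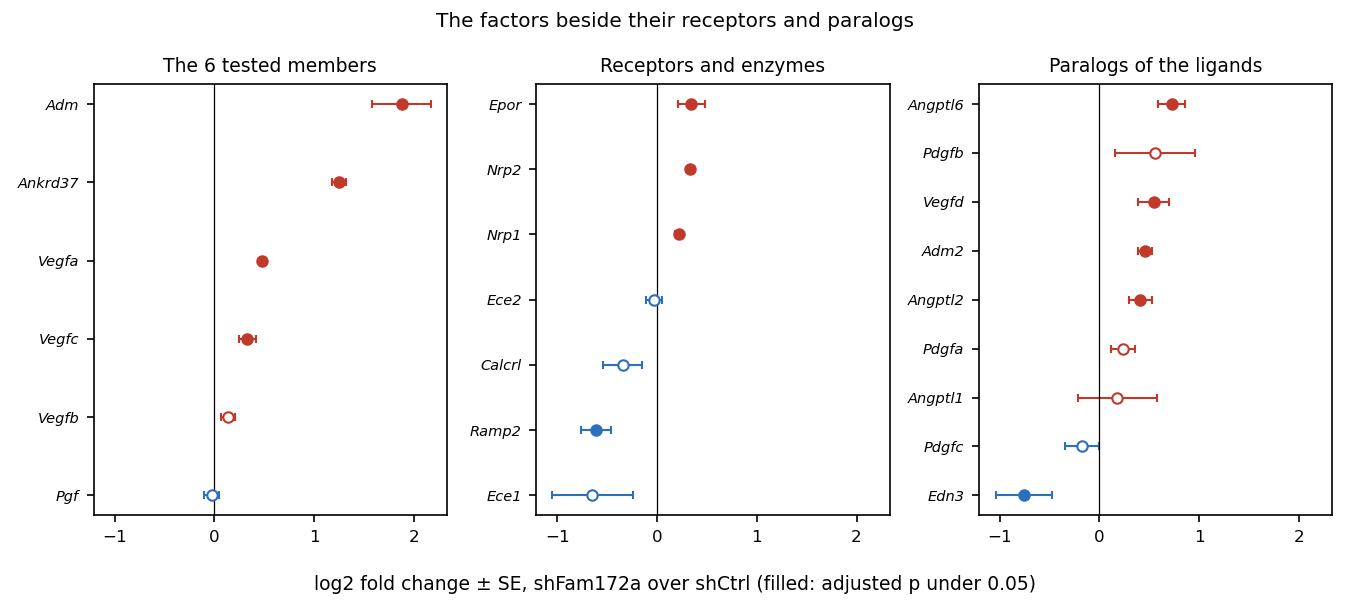
Log2 fold change of shFam172a over shCtrl with its SE (horizontal axis) for the 6 tested members, 7 receptors and enzymes and 9 paralogs that passed the filter. Filled circles passed at adjusted p under 0.05, red lies above 0 and blue below, and Adm at 1.88 lies farthest to the right.

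Of 17 paralogs of the ligands, 9 were tested, of which 4 were higher, 1 lower and 4 not called (median log2 fold change 0.41). Among all genes tested, 17.5% were called higher and 18.6% lower. Adm2, a relative of adrenomedullin that shares its receptors, averaged 31.0 ± 1.14 CPM in shFam172a and 22.6 ± 1.89 CPM in shCtrl (0.46 ± 0.069, edgeR adjusted p = 1.4e-06). Angptl6 averaged 8.31 ± 0.148 CPM in shFam172a and 5.04 ± 0.446 CPM in shCtrl (0.72 ± 0.13, edgeR adjusted p = 2.9e-05), and Angptl2 was at 0.41 ± 0.12 (edgeR adjusted p = 0.0052). Vegfd, listed under its older symbol Figf and a ligand of Flt4 like Vegfc, averaged 6.75 ± 1.32 CPM in shFam172a and 4.63 ± 0.602 CPM in shCtrl. Its log2 fold change was 0.54 ± 0.16 (edgeR adjusted p = 0.0058), and without shFam172a replicate 3 it was 0.39 with adjusted p = 0.059. The paralog called lower was Edn3, at a log2 fold change of -0.76 ± 0.28 (edgeR adjusted p = 0.030). It averaged 1.06 ± 0.107 CPM in shFam172a and 1.80 ± 0.288 CPM in shCtrl. That call was lost without shFam172a replicate 1 or 3 or shCtrl replicate 1 or 3, with adjusted p = 0.057, 0.075, 0.097 and 0.13.

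In a wider list of 38 angiogenic or secreted factors, surface receptors and matrix proteases, 21 were tested. Of these, 6 were higher, 1 lower and 14 not called (median log2 fold change 0.16). Over all genes tested, 36.1% were called in either direction and 17.5% were called higher. Stc1, the secreted hormone stanniocalcin 1, averaged 2.81 ± 0.397 CPM in shFam172a and 0.484 ± 0.230 CPM in shCtrl, with 189 counts in shFam172a against 17 in shCtrl (2.55 ± 0.32, edgeR adjusted p = 5.6e-08). Its relative Stc2 was at 0.40 ± 0.088 (edgeR adjusted p = 0.00036). Mif, a secreted cytokine, averaged 542 ± 18.4 CPM in shFam172a and 374 ± 9.62 CPM in shCtrl (0.54 ± 0.030, edgeR adjusted p = 1.3e-17). Fgf1 fell, to 32.6 ± 1.88 CPM in shFam172a against 41.8 ± 3.46 CPM in shCtrl (-0.36 ± 0.062, edgeR adjusted p = 1.4e-05). In the same list, Angpt1, Esm1, Tgfa, Igfbp3, Cxcl12 and Cxcr4 had 0 counts in all 6 libraries.

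The HIF subunit and oxygen-sensing genes moved in both directions. Of 13 HIF subunits, oxygen sensors and coregulators, 11 were tested, of which 7 were higher, 2 lower and 2 not called (median log2 fold change 0.17). The shares over all genes tested were 17.5% called higher and 18.6% called lower. Vhl, the ubiquitin ligase subunit that removes HIF, was at 57.5 ± 2.13 CPM in shFam172a and 43.2 ± 2.78 CPM in shCtrl (0.41 ± 0.053, edgeR adjusted p = 6.8e-08). The HIF prolyl hydroxylase Egln1 was at 1.02 ± 0.031, and Egln3, of the same kind, at 0.70 ± 0.19 (edgeR adjusted p = 0.0031). Egln3 lost its call without shCtrl replicate 2 (0.51, adjusted p = 0.064). Hif3a, a subunit that can act against HIF, averaged 2.47 ± 0.428 CPM in shFam172a and 1.27 ± 0.375 CPM in shCtrl (0.94 ± 0.26, edgeR adjusted p = 0.0042). The genes that fell, named after their values were seen, were Hif1a at -0.11 ± 0.031 and its partner Arnt at -0.13 ± 0.050 (edgeR adjusted p = 0.0046 and 0.048). Hif1a lost its call without shCtrl replicate 1 (adjusted p = 0.060). Arnt, whose groups overlapped, lost it without shFam172a replicate 1 or 2 or shCtrl replicate 2 or 3 (adjusted p = 0.11, 0.17, 0.12 and 0.25). Among the 20 further low-oxygen targets, 17 were higher, 0 lower and 3 not called, against 17.5% called higher over all genes tested. That list, like the others here, was chosen with earlier results of these data known, so its count is a description only. Its median log2 fold change was 0.91, and the pyruvate dehydrogenase kinase Pdk1, for example, was at 2.12 ± 0.062.

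Profiles most like those of Vegfa and Ankrd37 were sought by the Euclidean distance between mean-centred log2 CPM values over the 6 libraries, among 10911 genes. Nearest to Vegfa were Pfkp, Jmjd6 and Unc13a, at distances of 0.049, 0.051 and 0.058 where the median gene lay at 0.63. Their log2 fold changes were 0.48, 0.51 and 0.47. Nearest to Ankrd37 were Pgm2, Vwa1 and Aldoc, at distances of 0.19, 0.21 and 0.21 (median 1.58), with log2 fold changes of 1.16, 1.10 and 1.33. The libraries fall into 2 groups that also differ in depth, so the distances are a description only.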

How the data were processed

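RNA from 6 Neuro2a samples was sequenced as paired-end reads after TRIzol extraction, per the labels' protocols. The authors deposited unnormalized counts, 1 row per gene symbol. The submitters' processing notes list HISAT2 2.0.5, HTSeq and mm10. For the annotation and strand setting, nothing is stated. The 6 single-sample tables equalled the series table. Its 5 rows that name no gene, 35.0% to 37.6% of all counts in shFam172a libraries and 33.5% to 34.5% in shCtrl libraries, were left out. Genes were filtered with filterByExpr (12820 of 18128 with any count), TMM-scaled, then tested in edgeR 4.0.16 in R 4.3.3 (robust glmQLFit, glmQLFTest, two-sided, Benjamini-Hochberg, called under 0.05). The SE is the log2 fold change divided by the square root of F. The test was checked on simulated counts. CPM of genes under the filter use summed gene counts without TMM. Locations, exon lengths and overlaps come from GENCODE M21 (GRCm38), promoters from RefSeq. Figf, Gm6484, Ctgf, Cyr61 and Ero1l were matched to Vegfd, Angptl8, Ccn2, Ccn1 and Ero1a.

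Genes were named by rule: all members, every receptor or enzyme, and in each other list called genes past 0.3 on the log2 scale, at most 4 per direction by smallest p. Some genes that the rule names are not reported here. Members and lists were chosen with earlier results of these data known. Alternatives were RLE scaling, other filters, DESeq2 1.42.0, non-robust estimation, a replicate block and leaving out each library. Shared replicate numbers gave no evidence of pairing, which does not exclude it.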

Additional observations from a re-analysis of the deposited data

Results flagged for a closer look

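Epo, which was outside the test because its counts were too low, had 15 counts over the 3 shFam172a libraries (4, 6 and 5) and 0 over the 3 shCtrl libraries. It was picked out because a signal appeared in data that the comparison did not use, above the level in the control libraries. The shFam172a libraries were also the deeper ones. At 0.223 CPM (exact 95% Poisson interval 0.125 to 0.367) the level exceeded the 0.0840 CPM that a count of 0 allows in shCtrl. The upper end of the same interval for shCtrl was 0.103 CPM, for counting error only. Gnb2, whose exons overlap an annotated Epo exon on the same strand, stood at 272 ± 13.3 CPM in shFam172a and 273 ± 7.81 CPM in shCtrl, and its part in the Epo counts was not tested.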

How the results depend on the processing

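The 6 tested members were refitted under 12 alternatives, giving 72 values, of which 69 kept their direction and side of the threshold. The number of members called higher was 4 under 10 alternatives, with 0 lower under all 12. It was 5 with no low-count filter, which added Epo, and 3 with the replicate block, under which Adm was at 1.88 with adjusted p = 0.067, and 2150 genes were higher and 2318 lower. Same-numbered libraries did not deviate together (r = -0.0054, -0.0038 and -0.0096), so the numbers are no evidence of pairing. Leaving out 1 library at a time, Pgf ranged from -0.064 to 0.028 and Ece2 from -0.11 to 0.031, both changing sign without being called. In the same way the count of lower genes was 1 to 2 for receptors and 0 to 1 for paralogs. It was 1 to 2 for other secreted factors and for HIF regulators, and 0 to 1 for the further low-oxygen targets. DESeq2 gave 0 lower paralogs, and 1 lower HIF regulator, as did RLE scaling, no low-count filter and the filter of 1 CPM in 3 libraries, each time without Arnt (adjusted p = 0.16 with DESeq2, and 0.053, 0.069 and 0.055 with the others). DESeq2 also lost Epor and Edn3 (adjusted p = 0.14 and 0.12). Over the whole table DESeq2 called 1636 genes higher and 1763 lower. Depth limits Edn1, Epo, Angptl4 and Flt1, which had at most 14 counts in any library.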
